A study of Homo sapiens with 8 samples.

Results

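The genes described here are 10 chemokines of cultured human keratinocytes, listed by symbol, of the 34415 gene symbols counted: the neutrophil-attracting CXCL1, CXCL2, CXCL3, CXCL5 and CXCL8, the interferon-induced CXCL10 and CXCL11, and CCL2, CCL5 and CCL20. All 10 are in the count table, and 8 passed the filter on low counts; CXCL10 and CXCL11 did not. The RNA is from HaCaT, an epidermal keratinocyte line that became immortal on its own in culture, used between passages 21 and 33. In 4 cultures (siETV4) the cells were transfected with small interfering RNA against ETV4, an ETS-family transcription factor, and in 4 (siNC) with a negative-control small interfering RNA, each for 48 h. Every culture of both groups spent 96 h at 35 mM glucose, raised from the 5.5 mM of the basal medium, so the comparison is of small interfering RNAs within high glucose. Whether each reagent was 1 small interfering RNA or a pool is not stated in the labels, and the use of 1 cell line limits the values to HaCaT.

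Chemokines are small secreted proteins that draw leukocytes along a concentration gradient by binding G protein-coupled receptors. CXCL1, CXCL2, CXCL3, CXCL5 and CXCL8 carry the sequence Glu-Leu-Arg ahead of the CXC motif and attract neutrophils through CXCR2. CXCL10 and CXCL11 lack it, are induced by interferons and attract activated T cells through CXCR3, while CCL2 attracts monocytes through CCR2, CCL5 attracts T cells and monocytes, and CCL20 attracts Th17 cells and dendritic cells through CCR6. Keratinocytes produce many of these proteins in wounds and in psoriasis, and transcription of most of them is induced through NF-kB, with interferon-activated factors also acting at CXCL10, CXCL11 and CCL5.

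Promoter sequence shows what several of the members share upstream. Promoters in RefSeq (GRCh38.p14) were matched by symbol for 8 of the 10 genes, and not for CCL2 and CCL5. In the 250 bases before the start site, 7 of the 8 held GGAATTTCC or its reverse complement GGAAATTCC, the central letters of a kappaB site, on either strand; of all 35116 promoter windows of the same length 0.413% did. This motif was chosen after the sequences had been read, so the share does not measure how unlikely the matches are. The upstream windows of CXCL1, CXCL2 and CXCL3 were 70.1 to 81.4% identical when aligned, so their matches are not independent of each other. The windows below show the motif in capitals with its flanks, 5′ to 3′ in the direction of transcription.
CXCL1: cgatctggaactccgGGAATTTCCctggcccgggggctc
CXCL2: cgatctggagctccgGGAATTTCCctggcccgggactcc
CXCL3: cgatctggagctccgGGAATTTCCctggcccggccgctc
CXCL5: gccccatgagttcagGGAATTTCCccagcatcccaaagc
CXCL8: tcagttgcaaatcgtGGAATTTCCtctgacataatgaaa
CXCL10: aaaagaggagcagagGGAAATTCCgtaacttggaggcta
CXCL11: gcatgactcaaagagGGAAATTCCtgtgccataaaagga
The windows lie for CXCL1 at chr4:73869300-73869338, plus strand, for CXCL2 at chr4:74099249-74099287, minus strand, and for CXCL3 at chr4:74038744-74038782, minus strand. The other windows lie for CXCL5 at chr4:73998744-73998782, minus strand, for CXCL8 at chr4:73740463-73740501, plus strand, for CXCL10 at chr4:76023650-76023688, minus strand, and for CXCL11 at chr4:76036122-76036160, minus strand. Counted from the start site, the match began at -78 in CXCL1, -77 in CXCL2, -78 in CXCL3, -90 in CXCL5, -91 in CXCL8, -176 in CXCL10 and -75 in CXCL11. A broader kappaB-type pattern, GGG, any 5 bases and CC on either strand, was found in all 8 promoters and in 54.4% of all promoters, and it overlaps the shorter match in each of these genes but CXCL8. The whole upstream windows of CXCL8 and CCL20 are shown because CXCL8 carries the shorter match away from the broader one, and CCL20 is the promoter of the 8 that lacks the shorter match. Capitals mark matches to either pattern.
CXCL8: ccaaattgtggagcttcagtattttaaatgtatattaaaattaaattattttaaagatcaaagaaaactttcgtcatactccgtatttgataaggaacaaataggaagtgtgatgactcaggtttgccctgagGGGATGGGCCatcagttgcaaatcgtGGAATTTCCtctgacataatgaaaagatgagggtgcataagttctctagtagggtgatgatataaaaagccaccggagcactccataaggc
CCL20: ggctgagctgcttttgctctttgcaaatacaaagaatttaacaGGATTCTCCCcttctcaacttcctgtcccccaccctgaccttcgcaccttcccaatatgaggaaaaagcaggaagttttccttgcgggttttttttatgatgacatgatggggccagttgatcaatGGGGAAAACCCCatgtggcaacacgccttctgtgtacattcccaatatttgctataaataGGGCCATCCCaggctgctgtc
These are chr4:73740319-73740568, plus strand, and chr2:227813592-227813841, plus strand. An interferon-response type pattern, GAAA, any 2 bases and GAAA on either strand, occurred in CXCL10 alone of the 8, from -221 to -212, and in 3.02% of all promoters. The ETS core CGGAAG, searched on both strands, occurred in CXCL1 and CXCL2, ending at -104 and -103, and in 16.5% of all promoters. A match is a run of letters and shows no binding.

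The knockdown was seen in the target itself. ETV4 stood at 3.10, 2.71, 1.83 and 2.80 CPM (counts scaled to a common library size) in siETV4 replicates 1 to 4, against 32.0, 29.7, 31.1 and 19.8 CPM in the siNC replicates in the same order (log2 fold change -3.43, SE 0.21, edgeR adjusted p 4.64e-05). Libraries held 35057643 to 41657753 counts, and 1 CPM corresponded to 40.1 counts on average. All 12 keratinocyte markers listed were tested by edgeR and 0 were called, with 0 at an unadjusted p under 0.05 and 0 called by DESeq2. With each library's GC content and length trend removed 0 were called. Without siNC replicate 4 edgeR called 2 of them higher, in a fit that called 12% of all genes higher. KRT5, a keratin of basal cells, averaged 1084 ± 87.5 CPM in siETV4 and 1241 ± 93.7 CPM in siNC (SD, n = 4 each). Of 17 leukocyte markers, 10 were at 0 counts in every library, including PTPRC, and the summed level of the 17 was 0.862 to 1.21 CPM in siETV4 and 0.872 to 1.59 CPM in siNC. Of 13 fibroblast, endothelial and melanocyte markers, 4 were at 0 counts in every library, including COL1A2 and LUM. In all 6 were tested, of which edgeR called 0 (2 at an unadjusted p under 0.05, 1 called by DESeq2 and 1 by edgeR without siNC replicate 4). Among all genes, 12.6% stood at an unadjusted edgeR p under 0.05, and DESeq2 called 0.884% higher. The summed level of the 13 markers was 22.5 to 28.6 CPM in siETV4 and 19.95 to 27.1 CPM in siNC. Of these, named after their values were seen, DCN, a matrix proteoglycan of fibroblasts, held 39, 14, 31 and 25 counts in siETV4 and 8, 8, 5 and 1 counts in siNC, without overlap (log2 fold change 2.17, SE 0.58, edgeR adjusted p 0.203, DESeq2 adjusted p 0.0294, and without siNC replicate 4 1.81, edgeR adjusted p 0.0440). Every siNC library was under the filter's minimum count of 10, so DCN passed the filter through siETV4 alone. Its p-values and lack of overlap are therefore no independent support. CDH5, the endothelial cadherin, held 612 to 868 counts in siETV4 and 455 to 701 counts in siNC (log2 fold change 0.32, edgeR adjusted p 0.396). The part of these transcripts in the chemokine results was not tested. The libraries differed in how their counts followed GC content: across genes, the deviation of a library from the mean of all 8 had a Spearman's rho with transcript GC content of -0.65, 0.21, -0.58 and 0.02 in siETV4 replicates 1 to 4, against 0.56, 0.53, 0.64 and -0.60 in the siNC libraries, replicate 4 being the negative one. Results are therefore also given with each library's GC content and length trend removed and with siNC replicate 4 left out.

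Levels can be compared between genes only per length, on the FPKM scale (fragments per kilobase of transcript, scaled to library size). CCL2 was the most abundant of the 10 chemokine transcripts and made up 62.9 to 69.9% of their summed FPKM in siETV4 and 63.7 to 68.6% in siNC. It was followed by CXCL1, at a level of 41.2 ± 4.38 FPKM in siETV4 and 32.1 ± 2.25 FPKM in siNC (SD, n = 4 each), and by CXCL8, at 16.4 ± 2.09 FPKM in siETV4 and 9.08 ± 1.96 FPKM in siNC. The next places in the order differed between the groups. In siETV4 CCL5, at 10.4 to 12.4 FPKM, stood above CXCL3, at 6.68 to 9.25 FPKM, whereas in siNC CCL5, at 4.35 to 5.75 FPKM, stood below CXCL3, at 5.94 to 8.81 FPKM; the libraries of these genes did not overlap in either group. CXCL8 and CXCL3 overlapped in siNC, where CXCL8 spanned 7.33 to 11.7 FPKM, and did not in siETV4. CCL20, CXCL2 and CXCL5 formed the low end of the tested members, at means over all 8 libraries of 1.56, 0.576 and 0.467 FPKM, and in siNC their ranges overlapped. CXCL10 and CXCL11 lay lowest, at 0.160 and 0.117 FPKM. The summed level of the 10 was 243 ± 17.9 FPKM in siETV4 and 165 ± 12.6 FPKM in siNC.

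**Figure D1:**
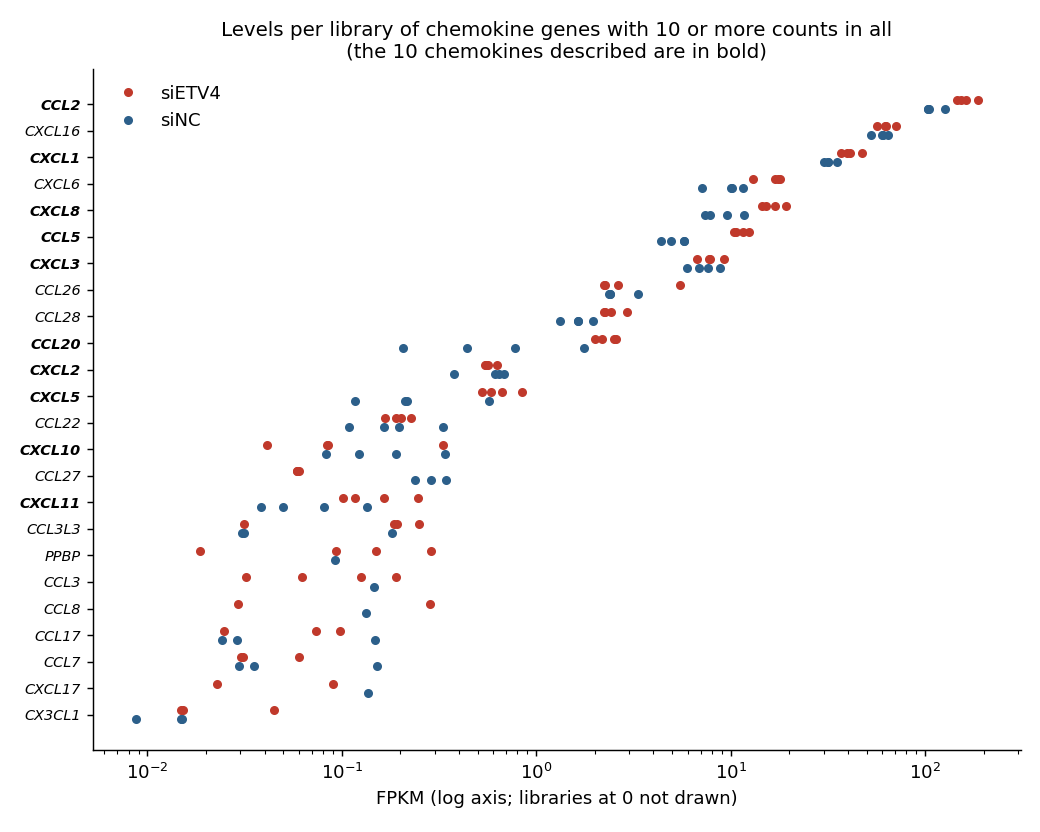
FPKM of each library (log axis, 4 siETV4 libraries in red and 4 siNC libraries in blue) for the chemokine genes with at least 10 counts in all, ordered by mean level, with the 10 described genes in bold. CCL2 is at the top, and CCL5 lies above CXCL3 in siETV4 and below it in siNC.

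CCL5 was the single member that passed the test, higher in siETV4 by 2.09-fold. The gene lies on chromosome 17 from 35871491 to 35880360 (GRCh38), across a span shared with LOC105371745, which held at most 4 counts in any siETV4 library and 1 in any siNC library. Its level was 13.6, 16.3, 14.4 and 13.3 CPM in siETV4 replicates 1 to 4, against 7.59, 6.69, 7.68 and 5.52 CPM in siNC replicates 1 to 4. The lowest siETV4 library lay well above the highest siNC library, and siNC replicate 4 was the lowest of all. CCL5 rose to a mean of 14.4 ± 1.38 CPM in siETV4, against 6.87 ± 1.00 CPM in siNC (SD, n = 4 each; fitted log2 fold change 1.07, SE 0.15, 95% interval of the fold 1.67 to 2.63, edgeR adjusted p 0.0163). Over all 13572 genes tested the same threshold called 0.236% in either direction, and 0.118% as higher. Bulk RNA does not separate more cells that make a transcript from more transcript per cell, here and below.

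Leaving out libraries changed the call of CCL5 more than its size. The log2 fold change was 0.97 to 1.12 in the 8 fits that left out 1 library. It passed in 3 of them, without siETV4 replicate 4 (edgeR adjusted p 0.0496), siNC replicate 3 (0.0451) or siNC replicate 4 (0.00333), and in the other 5 the edgeR adjusted p was 0.0532 to 0.0806. The fit without siNC replicate 4, also used for the genes below, called 12% of all genes higher. Once the GC content and length trends were taken out, the log2 fold change was 1.17 (SE 0.11, edgeR adjusted p 1.97e-04).

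CCL2, the monocyte attractant, lies on chromosome 17 from 34255285 to 34257203. Its level was 119, 115, 134 and 106 CPM in siETV4 replicates 1 to 4, against 77.9, 81.0, 78.6 and 91.0 CPM in siNC replicates 1 to 4. The groups did not overlap, and siNC replicate 4 was the highest of the siNC libraries, the reverse of its place in CCL5. The log2 fold change was 0.53 (SE 0.10, fold 1.44, 95% interval 1.24 to 1.67) with an edgeR adjusted p of 0.0623, which missed the threshold of 0.05. It passed after removal of those trends, at a smaller log2 fold change of 0.33 (edgeR adjusted p 0.0223), without siNC replicate 4 (0.58, edgeR adjusted p 0.00584) and by DESeq2 (0.54, adjusted p 3.67e-04).

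CCL20, the CCR6 ligand on chromosome 2 from 227813842 to 227817556, had low counts and the largest fitted difference. It held 86, 75, 67 and 87 counts in the siETV4 libraries, against 27, 6, 15 and 59 counts in the siNC libraries. The siETV4 libraries were close together and all above siNC, in which replicate 4 held more than the other siNC libraries. The log2 fold change was 1.51 (SE 0.48, fold 2.84, 95% interval 1.37 to 5.88, edgeR adjusted p 0.276). Without siNC replicate 4, its highest siNC library, it was 2.20 and passed (edgeR adjusted p 0.00892), in a fit that called 12% of all genes higher. After trend removal it was 1.34 and did not pass (edgeR adjusted p 0.151), and with both steps it was 1.82 and passed (edgeR adjusted p 0.0249).

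**Figure D2:**
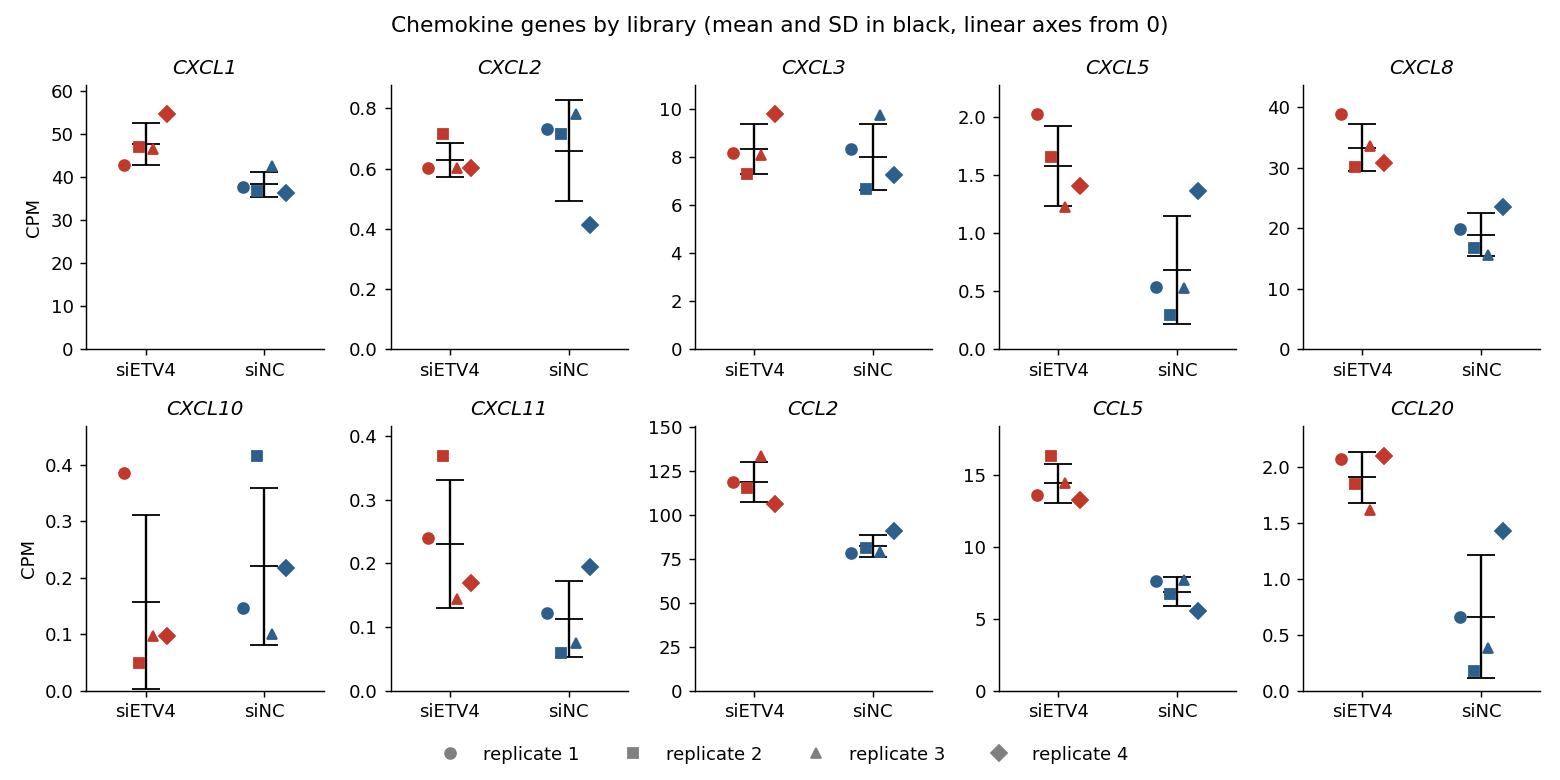
CPM of the 10 chemokine genes in each library (linear axes from 0, siETV4 in red left of siNC in blue, symbols for replicates 1 to 4, black bars for mean and SD). CCL5, CCL2, CCL20, CXCL8 and CXCL1 do not overlap between the groups, and siNC replicate 4 (blue diamond) is the highest siNC library for CXCL5, CXCL8, CXCL11, CCL2 and CCL20 and the lowest for CXCL1, CXCL2 and CCL5.

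The neutrophil-attracting genes lie together on chromosome 4 within 358627 bases, from CXCL8 at 73740569 to CXCL2 at 74099195, and their log2 fold changes spanned -0.06 to 1.20. By edgeR 0 of the 5 passed the test across all genes. CXCL1, CXCL5 and CXCL8 had an unadjusted p under 0.05, and DESeq2 called CXCL8. Among all genes, 12.6% stood at an unadjusted edgeR p under 0.05, and DESeq2 called 0.884% higher. CXCL8, the interleukin-8 gene, stood at 38.8, 30.2, 33.5 and 30.8 CPM in siETV4 replicates 1 to 4, against 19.9, 16.7, 15.5 and 23.4 CPM in siNC replicates 1 to 4. The groups were apart, with siNC replicate 4 nearest to siETV4. The log2 fold change was 0.82 (SE 0.15, fold 1.76, 95% interval 1.40 to 2.22, edgeR adjusted p 0.0623). CXCL8 passed without siNC replicate 4 (0.94, edgeR adjusted p 0.00333), by DESeq2 (0.83, adjusted p 1.12e-04), and, at a smaller size, after trend removal (0.57, edgeR adjusted p 0.0223).

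CXCL1, the most abundant of this class, stood at 42.8, 46.9, 46.6 and 54.5 CPM in siETV4 replicates 1 to 4, against 37.6, 36.7, 42.6 and 36.3 CPM in siNC replicates 1 to 4. The groups were separated only by the narrow gap between siETV4 replicate 1 and siNC replicate 3. Its log2 fold change was 0.32 (SE 0.11, fold 1.25, 95% interval 1.05 to 1.47, edgeR adjusted p 0.316). CXCL5, a CXCR2 ligand that epithelial cells make, held 84, 67, 51 and 58 counts in siETV4 and 22, 10, 21 and 56 counts in siNC. The groups overlapped through siNC replicate 4, which stood above siETV4 replicate 3 in CPM. Its log2 fold change was 1.20 (SE 0.42, fold 2.29, 95% interval 1.21 to 4.35, edgeR adjusted p 0.322), and without siNC replicate 4 it was 1.77 and passed (edgeR adjusted p 0.0139). That fit without siNC replicate 4 called 12% of all genes higher.

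CXCL3 and CXCL2, close relatives of CXCL1, had no detectable difference. CXCL3 stood at 8.17, 7.29, 8.08 and 9.78 CPM in siETV4 and at 8.34, 6.66, 9.74 and 7.24 CPM in siNC (fitted log2 fold change 0.06, SE 0.16, fold 1.04, 95% interval 0.814 to 1.33, edgeR adjusted p 0.889). CXCL2 held 25, 29, 25 and 25 counts in siETV4 and 30, 24, 31 and 17 counts in siNC (log2 fold change -0.06, SE 0.34, fold 0.957, 95% interval 0.567 to 1.61, edgeR adjusted p 0.944). Their groups overlapped throughout, and the intervals leave room for a 1.33-fold and a 1.61-fold higher level. Of the 50-base stretches of the CXCL1 reference transcript 5.73% also occur in CXCL2, and of those of CXCL2 4.11% also occur in CXCL3, so the split of such reads among the 3 genes is uncertain. The upstream windows of CXCL1 and CXCL3 were 81.4% identical when aligned.

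**Figure D3:**
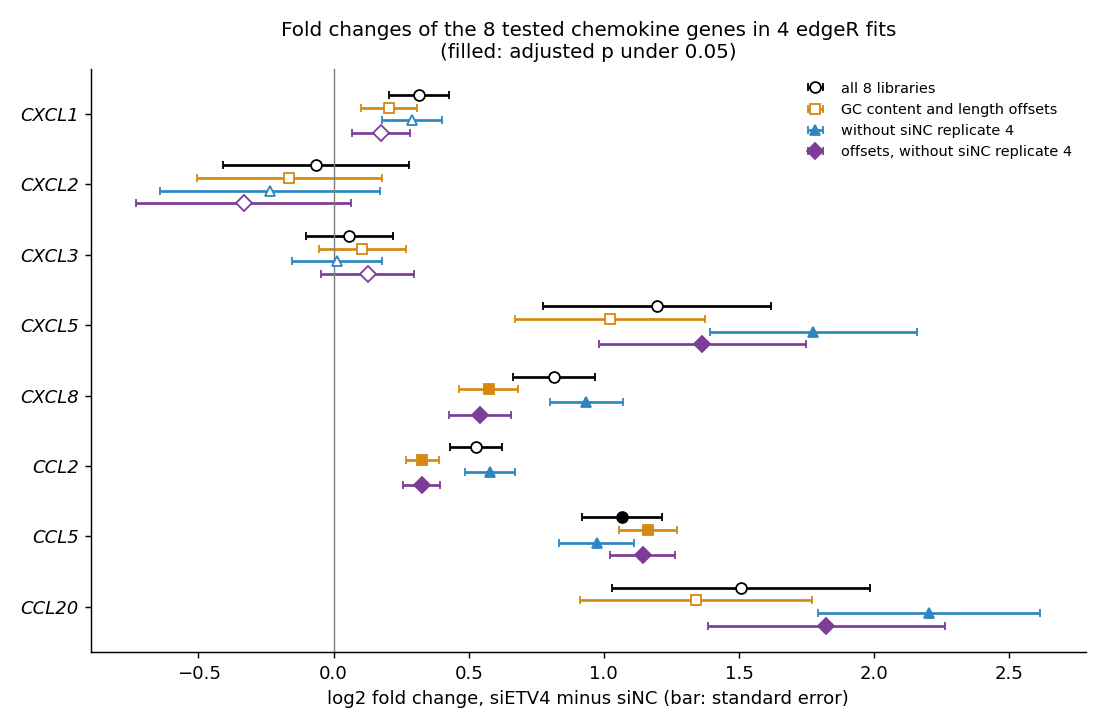
Log2 fold change (siETV4 minus siNC, bars for the standard error) of the 8 tested chemokine genes in 4 edgeR fits, with filled symbols at an adjusted p under 0.05. CCL5 is filled in all 4 fits, at 0.97 to 1.17, CXCL8 and CCL2 in the 3 alternatives shown, and CXCL1, CXCL2 and CXCL3 in none.

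CXCL10 and CXCL11, the interferon-induced CXCR3 ligands on chromosome 4, were near the limit of detection. CXCL10 held 16, 2, 4 and 4 counts in siETV4 and 6, 14, 4 and 9 counts in siNC. CXCL11 held 10, 15, 6 and 7 counts in siETV4 and 5, 2, 3 and 8 counts in siNC. Both pairs of groups overlapped, and 3 counts corresponded to 0.0721 to 0.0892 CPM. In a fit without a filter, CXCL10 had a log2 fold change of -0.47 (SE 0.85, edgeR adjusted p 0.821) and CXCL11 of 1.00 (SE 0.81, edgeR adjusted p 0.636), so no difference was detectable at this depth. CXCL9, the related gene beside them, was at 0 counts in every library. ART3, which overlaps the positions of CXCL10 and CXCL11, was also at 0.

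Set side by side, the neutrophil-attracting genes had a median log2 fold change of 0.32 over 5 members and the CCL genes of 1.07 over 3, against -0.01 over all genes tested. The median of the CCL genes is the value of CCL5 itself. CXCL10 and CXCL11 did not pass the filter and enter neither median. Across both classes 7 of the 8 tested members were on the positive side, and 5 of 8 had siETV4 libraries all above siNC, which was so for 2.62% of all genes tested; in 0 of 8 were they all below siNC, which was so for 3.93% of all genes. At an unadjusted p under 0.05 stood 6 of the 8, all higher, where 12.6% of all genes stood in either direction and 5.8% as higher. Set against siNC replicates 1 to 3 alone, 6 of 8 were higher without overlap, where 15.8% of all genes were. The gene added is CXCL5, whose overlap came through the omitted library alone, so this count is no separate support. Without that library the fold changes also moved more closely with GC content (Spearman's rho -0.67 across genes). The counts above are over members that passed the filter, several of them on low values, and the difference between the classes was not tested. The members were chosen with earlier results of these data known, so the counts are no independent support. The range within the neutrophil-attracting class, -0.06 to 1.20, covered most of the range of the CCL genes, 0.53 to 1.51.

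**Figure D4:**
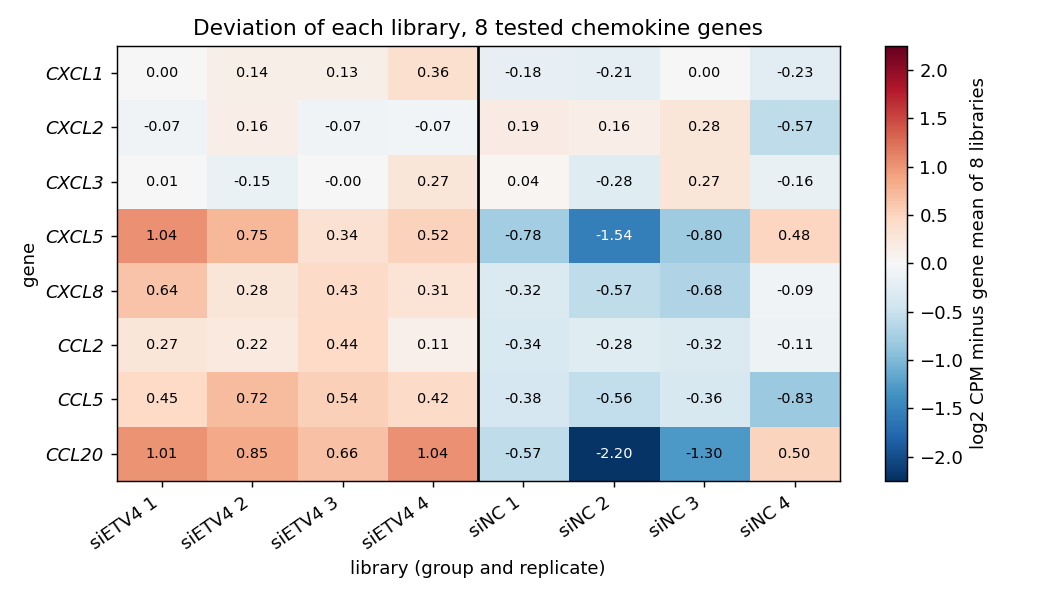
Log2 CPM of each library minus the gene's mean over the 8 libraries (columns, siETV4 left of siNC) for the 8 tested chemokine genes (rows). In siNC replicate 4 CCL20 and CXCL5 stand at 0.50 and 0.48, on the side of siETV4, and CCL5 at -0.83.

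GC content differed among the members, and the fold changes of all genes moved with it (Spearman's rho -0.55 across 12470 genes, which share libraries and are not replicates). Transcripts of CXCL8, CCL20, CXCL5 and CCL2 have a GC content of 33.4, 35.5, 37.6 and 42.6%, and genes within 2 percentage points of each had median log2 fold changes of 0.25, 0.21, 0.20 and 0.17. CCL5 has a GC content of 53.3%, and the 1573 tested genes within 2 percentage points of it had a median of -0.11. Removing the GC content and length trends took the log2 fold change of CCL5 up by a little and those of CXCL8, CCL2, CCL20, CXCL5 and CXCL1 down. In that fit 3 members passed, CCL5, CXCL8 and CCL2, where 0.882% of all genes were called higher. Without siNC replicate 4 CXCL5 and CCL20 passed too, 5 members in all, in a fit that called 12% of all genes higher. In that fit the fold changes moved more closely with GC content (Spearman's rho -0.67 across 12470 genes). With both steps the 5 members that passed were the same, where 2.98% of all genes were called higher. By DESeq2 3 members passed, where 0.884% of all genes were called higher.

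**Figure D5:**
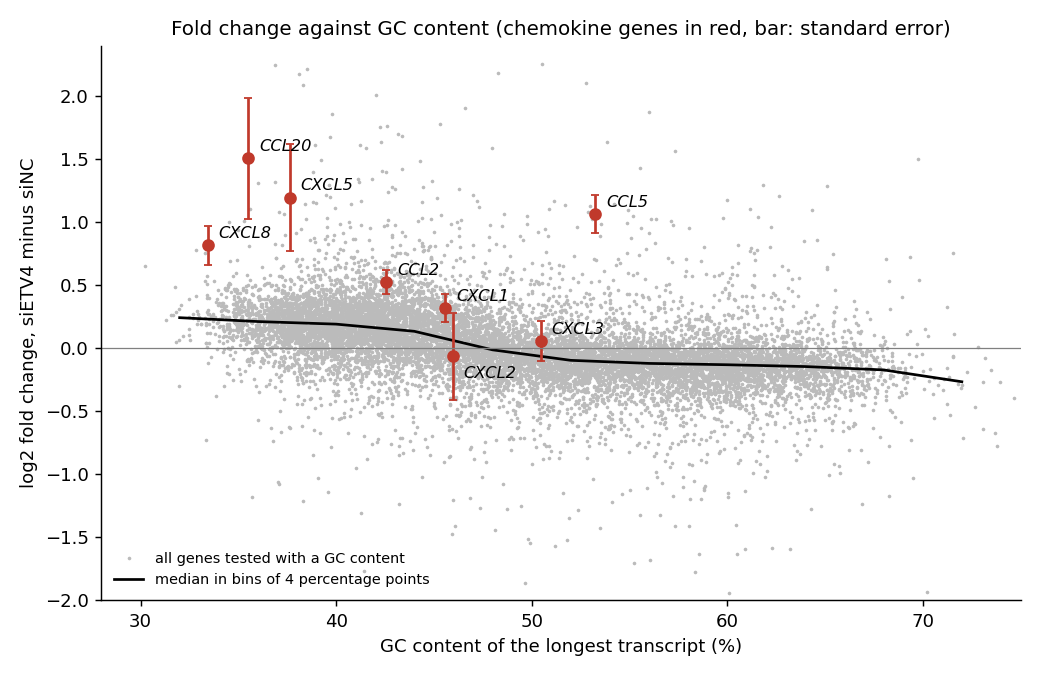
Log2 fold change (siETV4 minus siNC) against the GC content of the longest transcript (%), with all tested genes in grey, their median in bins of 4 percentage points as a line, and the 8 chemokine genes in red with standard errors; grey points outside the drawn range are left out. CCL5, at 53.3% GC and 1.07, lies where the median is below 0, whereas CXCL8, CCL20, CXCL5 and CCL2 lie where it is above 0.

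The remaining chemokine genes were mostly silent. Of 36 others counted, 18 were at 0 counts in every library and 5 were tested, with a median log2 fold change of 0.23. Of those tested edgeR called 0 (2 at an unadjusted p under 0.05, 1 called by DESeq2). Among all genes, 12.6% stood at an unadjusted edgeR p under 0.05, and DESeq2 called 0.884% higher. CXCL6, a further CXCR2 ligand that lies between CXCL8 and CXCL1, stood at 26.4, 20.4, 26.4 and 25.6 CPM in siETV4 and 11.1, 16.1, 16.1 and 17.4 CPM in siNC, without overlap (fitted log2 fold change 0.70, SE 0.16, edgeR adjusted p 0.134). It passed without siNC replicate 4 (0.78, edgeR adjusted p 0.0114) and by DESeq2 (0.72, adjusted p 0.00185), and not after trend removal (0.49, edgeR adjusted p 0.0885). The fit without siNC replicate 4 called 12% of all genes higher. CXCL16, a membrane-anchored chemokine and the most abundant of the others, averaged 150 ± 14.8 CPM in siETV4 and 145 ± 15.2 CPM in siNC (fitted log2 fold change 0.05, edgeR adjusted p 0.857). CCL28, a mucosal chemokine named after its values were seen, averaged 9.85 ± 1.10 CPM in siETV4 and 6.78 ± 1.01 CPM in siNC (fitted log2 fold change 0.54, edgeR adjusted p 0.235).

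Most of the chemokine receptors listed were hardly expressed, ACKR3 apart. Of 23 chemokine and decoy receptors 11 were at 0 counts in every library, among them CXCR1, CXCR3, CCR1 and CCR2, and 2 were tested with 0 called by edgeR (0 at an unadjusted p under 0.05, 0 by DESeq2). ACKR3, a scavenging receptor, averaged 13.2 ± 1.10 CPM in siETV4 and 14.4 ± 1.39 CPM in siNC (fitted log2 fold change -0.12, edgeR adjusted p 0.688). CXCR2 held 5 to 29 counts in siETV4 and 12 to 31 counts in siNC (log2 fold change -0.12, edgeR adjusted p 0.928).

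Among genes known to induce chemokines, to bind their promoters or to degrade their mRNA, edgeR with all libraries called 0, and the alternatives called a few. Of all genes, 0.884% were called higher by DESeq2, 0.882% after trend removal and 12% without siNC replicate 4. Called lower in these fits were 103 of 13572, 109 of 12470 and 673 of 13783 genes. An unadjusted edgeR p under 0.05 was reached by 12.6% of all genes. Among inducing cytokines and their receptors edgeR called 0 of 17 tested genes (4 at an unadjusted p under 0.05, 0 called by DESeq2). Their median log2 fold change was 0.27, with 11 positive and 6 negative. After trend removal 0 were called, and without siNC replicate 4 edgeR called 4 higher. The 4 at an unadjusted p under 0.05, named after their values were seen, were all higher. They were IL1R1 (1.01), IL1A (0.63), IFNGR1 (0.49) and IFNAR2 (0.27), at edgeR adjusted p of 0.332 to 0.378. TNFRSF1A, the main TNF receptor, had -0.17 and IL1B -0.08, while IFNB1 and IFNG were at 0 counts in every library. Among transcription factors of chemokine promoters edgeR called 0 of 20 (4 at an unadjusted p under 0.05, 1 called by DESeq2; median -0.05), with 2 called higher after trend removal, and 2 higher and 2 lower without siNC replicate 4. IRF1, which acts at interferon-induced promoters, averaged 175 ± 5.74 CPM in siETV4 and 208 ± 9.42 CPM in siNC without overlap (fitted log2 fold change -0.25, edgeR adjusted p 0.262). IRF9, a transcription factor of the interferon response named after its values were seen, averaged 21.9 ± 1.55 CPM in siETV4 and 14.5 ± 1.50 CPM in siNC (fitted log2 fold change 0.60, edgeR adjusted p 0.103), and it passed after trend removal (0.71, edgeR adjusted p 0.00360). Among mRNA decay regulators edgeR called 0 of 11 (3 at an unadjusted p under 0.05, 0 called by DESeq2; median -0.10), with 1 called lower after trend removal, and 1 higher and 2 lower without siNC replicate 4. The RNA-binding proteins HNRNPD and KHSRP had log2 fold changes of -0.15 and -0.23.

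Among secreted factors often induced with chemokines edgeR called 0 of 8 tested genes (5 at an unadjusted p under 0.05, median log2 fold change 0.31). DESeq2 called 3, and edgeR called 3 after trend removal and 3 without siNC replicate 4, all higher. Of all genes these fits called 0.884%, 0.882% and 12% higher, in the same order. With all libraries, 12.6% of all genes stood at an unadjusted edgeR p under 0.05. LCN2, an iron-binding antimicrobial protein, averaged 571 ± 15.4 CPM in siETV4 and 443 ± 39.5 CPM in siNC without overlap (fitted log2 fold change 0.37, edgeR adjusted p 0.143), and SAA1, an acute-phase protein, 116 ± 8.72 CPM in siETV4 and 96.8 ± 13.6 CPM in siNC (0.26, edgeR adjusted p 0.390).

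The profile of CCL5 over the 8 libraries was most like that of KRT17, a keratin of wounded epidermis. Likeness was the root mean square difference between log2 CPM values centred on each gene's mean, and it was 0.095 for KRT17, whose fold was close to that of CCL5 (log2 fold change 0.95, edgeR adjusted p 0.00636). GARS1-DT (0.145), PI3 (0.183), the gene of the protease inhibitor elafin, PRODH (0.200), a proline dehydrogenase, and IL32 (0.204), a cytokine, came next. Their log2 fold changes were 0.86, 0.99, 0.80 and 0.69, of which that of PI3 passed (edgeR adjusted p 0.0216). Of the chemokines, CXCL8 (0.339) and CCL2 (0.352) were nearest to CCL5, and CXCL5 (0.655) and CCL20 (0.872) were far from it. The libraries share the split by siRNA, so a small distance partly restates a similar fold.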

How the data were processed

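RNA of 8 HaCaT libraries was sequenced; titles gave each library's group and replicate number. The authors deposited whole-number read counts per gene symbol and FPKM values for the same 8 libraries. For 20584 of 20585 genes above 0, the deposited FPKM equals the count per library total and a gene length that is the same in every library (relative tolerance 1e-06). The genome build hg38 and R 3.2.0 stand in the submitters' processing notes, while aligner, counter, annotation and strand handling are not stated there, so antisense reads cannot be told apart.

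Counts were tested in R 4.3.3 with edgeR 4.0.16 (filterByExpr with a minimum count of 10, 13572 genes, TMM factors, quasi-likelihood test, siRNA as the single term). Adjustment was by Benjamini-Hochberg over all genes tested, with a call at an adjusted p under 0.05. CPM uses TMM-scaled library sizes. Log2 fold changes are siETV4 minus siNC. The design text calls the 4 replicates of each group independent. The chemokine genes, gene lists and tests were chosen with earlier results of these data known. Named genes are the 10 chemokines, ETV4, from each further list up to 4 called genes or its 2 most abundant, and the 5 genes nearest to CCL5; not every gene the rule takes is named.

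Alternatives were RLE factors, unscaled library sizes, omission of the filter, a minimum of 1 CPM in 4 libraries, DESeq2 1.42.0, limma-voom (limma 3.58.1), a robust fit, a replicate block, each library left out, limma-trend on log2 of FPKM plus 1 or 0.1 (mean FPKM of at least 0.5, or no filter), and offsets that take out each library's trend with GC content and transcript length (splines, 5 degrees of freedom). The offsets without siNC replicate 4 were added after the data had been examined. The longest transcript in GENCODE v29 gave the GC content, which was found for 12470 tested genes (91.9%). Promoters and positions are those of RefSeq (GRCh38.p14). The tests were checked on simulated counts, over 13392 genes (12356 for edgeR with the offsets). There edgeR made 3 false calls, DESeq2 26, limma-voom 3 and edgeR with the offsets 2. Of the genes given the smallest fold, edgeR recovered 25.4%, DESeq2 43.3%, limma-voom 25.4% and edgeR with the offsets 23.9%. At a fold of 2 these values were 73.1, 77.6, 73.1 and 68.7%, in the same order. At the largest fold, 4, they were 89.4, 89.4, 89.4 and 87.9%. A call by DESeq2 alone is to be read with its larger number of false calls.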

Additional observations from a re-analysis of the deposited data

Results flagged for a closer look

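Of 68 groups of 4 libraries examined, 7 had 1 library far from the other 3, and chance alone flags about 1 in 20 such groups. CXCL2 stood at 0.714 CPM in siETV4 replicate 2 and at 0.601 to 0.603 CPM in the other siETV4 libraries, a gap of a few counts. CXCL10 stood at 0.385 CPM in siETV4 replicate 1 and at 0.0493 to 0.0965 CPM in the others. CXCL6 stood at 20.4 CPM in siETV4 replicate 2 and at 25.6 to 26.4 CPM in the others. PRODH stood at 4.36 CPM in siETV4 replicate 2 and at 3.59 to 3.69 CPM in the others. IL1B stood at 63.1 CPM in siNC replicate 2 and at 50.8 to 52.7 CPM in the others. In siNC replicate 4, IRF1 stood at 194 CPM against 213 CPM in each of the other siNC libraries, and KRT17 at 171 CPM against 219 to 227 CPM.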

How the results depend on the processing

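CCL5 kept a positive log2 fold change of 0.97 to 1.17 in all 22 alternatives and passed in 16 of them. CXCL8 and CCL2 were positive in all 22 and passed in 8 and 7. The number of chemokine genes called higher, 1 with all libraries, was 2 by limma-voom, 3 without a filter, by DESeq2, with limma-trend on log2 of FPKM plus 1 or 0.1, or with GC content and length trends removed, 0 with the replicate block, 0 to 5 with 1 library left out, and 5 with trends removed and siNC replicate 4 left out. In every setting run 0 were called lower.

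Over all genes, 16 were called higher and 16 lower. With DESeq2 these counts were 120 and 103, and after removing GC content and length trends 110 and 109 (376 and 435 also without siNC replicate 4). Without a filter 30 were higher, with limma-trend at either pseudocount 37 were higher, and with library size alone 10 were lower. With 1 library left out 5 to 1654 were higher and 4 to 673 lower, the largest counts being those without siNC replicate 4. The causes were not tested.

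The median of the neutrophil-attracting genes, 0.32, was 0.56 under the filter of 1 CPM in 4 libraries, which drops CXCL2, and 0.18 with trends removed and siNC replicate 4 left out. The sign turned in 5 genes that passed in none of the fits. Across the fits that left out 1 library, the log2 fold change spanned -0.24 to 0.028 for CXCL2, -0.029 to 0.17 for CXCL3, -0.024 to 0.11 for CXCL16, -0.34 to 0.20 for CXCR2 and -0.16 to 0.54 for ITGAM. It was also 0.0094 for CXCL2 with limma-trend on log2 of FPKM plus 0.1, and 0.075 for CXCR2 with trends removed and siNC replicate 4 left out.

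Same-numbered libraries deviated together with correlations of -0.09, 0.30, -0.14 and -0.19 for replicates 1 to 4, and 1 of 4 siETV4 libraries correlated best with its own number, so the numbers were not taken as pairs. With the replicate block 2 genes were higher and 2 lower, and CCL5 had an adjusted p of 0.108. With the block after trend removal 46 were higher and 54 lower, with CCL5 the single chemokine gene called (edgeR adjusted p 0.00504). Depth limits CXCL10, CXCL11 and CXCL2, whose libraries held 31 counts or fewer.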
